A study of Rattus norvegicus with 9 samples.

Results

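Genes that mark neutrophils were followed in whole lung of 7 Wistar rats, 3 with metabolic syndrome (MetS) and 4 controls. The list named 9 genes: S100a8, S100a9, Csf3r, Fpr1, Ngp, Np4, Camp, Cd177 and Lcn2. It took those with an array probe annotated to that gene alone, which left 7 of the 9, out of 14497 genes with a probe of their own. Np4 was not measured separately because its probe also carries the defensin gene RatNP-3b, and no probe used here was named for Cd177. From weaning, for 24 weeks, the only drink of the MetS rats was water with 30% sucrose, while the controls had plain water. Standard chow was given freely to both groups, and the protocol names a fast of 7 hours before the rats were killed. Sex is given (male) for the MetS rats alone. Animal 1 of either group was run on 2 arrays, which were averaged first, so n counts animals. All values are log2 expression, on which a difference of 1 is a doubling, and they show differences between animals for 1 gene, not levels between genes. In RNA of a whole organ, fewer cells of a type and less RNA per cell cannot be told apart.

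Neutrophils are short-lived white cells of the blood that kill microbes by engulfing them, by releasing stored granules and by producing oxidants. The lung capillaries hold a large pool of them even without infection. Granule proteins are made in sequence while the cells mature in bone marrow, under transcription factors such as C/EBP epsilon and PU.1. The surface receptors and the cytosolic S100 proteins characterise the mature cell.

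The 250 bases before the start of Ngp, S100a9 and Lcn2 are shown because these genes gave the between-animal patterns described below. They are from RefSeq, build GRCr8. Capitals mark matches to TTNNGNAA, a loose form of the C/EBP motif, or to GAGGAA, the core of the PU.1 motif, on either strand.
Ngp, chr8:119272355-119272604, plus strand: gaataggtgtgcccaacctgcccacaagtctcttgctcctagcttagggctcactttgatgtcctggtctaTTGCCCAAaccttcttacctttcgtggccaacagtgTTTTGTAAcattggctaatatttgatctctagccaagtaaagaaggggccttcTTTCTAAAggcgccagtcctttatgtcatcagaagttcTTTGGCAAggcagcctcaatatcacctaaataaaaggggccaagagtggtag
S100a9, chr2:178490623-178490872, minus strand: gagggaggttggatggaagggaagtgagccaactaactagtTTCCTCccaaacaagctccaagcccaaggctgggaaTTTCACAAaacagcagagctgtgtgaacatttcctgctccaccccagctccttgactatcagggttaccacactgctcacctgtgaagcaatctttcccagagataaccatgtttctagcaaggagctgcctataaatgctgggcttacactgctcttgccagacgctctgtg
Lcn2, chr3:36081781-36082030, minus strand: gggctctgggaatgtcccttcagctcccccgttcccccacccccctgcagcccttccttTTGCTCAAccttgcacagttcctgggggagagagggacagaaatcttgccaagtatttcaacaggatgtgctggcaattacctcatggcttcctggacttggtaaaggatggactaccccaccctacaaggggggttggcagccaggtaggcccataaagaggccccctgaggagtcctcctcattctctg
Ngp held 4 C/EBP matches and 0 PU.1 matches, S100a9 held 1 of each, and Lcn2 held 1 C/EBP match and 0 PU.1 matches. No match overlapped another in these windows. A promoter was listed for 6 of the 7 measured genes, and 5 of the 6 held the C/EBP letters and 3 of the 6 the PU.1 letters. Over all 33469 promoters the shares were 37.2% for C/EBP and 23.3% for PU.1. A match describes letters, not a bound site.

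Neutrophil genes did not separate rats with MetS from controls. The question of the comparison was which lung genes differ in metabolic syndrome. With limma, 0 of the 7 genes passed an adjusted p of 0.05 over all 28826 probes, where 0% of all probes passed. At an unadjusted p under 0.05 the count was also 0 of 7, beside 13.7% of all probes. The MetS and control values overlapped for each of the 7, while 11.7% of all probes did not overlap. MetS had the higher mean for 5 genes and the lower mean for 2. The median difference of the 7 was 0.17, beside 0.01 over all probes. Their adjusted p-values lay between 0.487 and 0.904 and their unadjusted p-values between 0.155 and 0.783.

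The alarmins come first. S100a8 and S100a9 pair to form calprotectin, a calcium- and zinc-binding protein abundant in the neutrophil cytosol. S100a8 stood at 7.65, 8.37 and 8.16 in MetS animals 1 to 3, against 8.13, 7.18, 7.52 and 7.89 in controls 1 to 4. Controls 2 and 3 and MetS animal 1 were low, and the groups overlapped. The means were 8.06 ± 0.37 in MetS (SD, n = 3) and 7.68 ± 0.41 in controls (SD, n = 4), a difference of 0.38 with a 95% interval from -0.22 to 0.98 (limma, adjusted p = 0.508). That difference was 0.21 without control 2, 0.23 without MetS animal 2 and 0.58 without MetS animal 1. It was 0.05 without controls 2 and 3, and 0.06 with the SD of all values of an animal as a covariate. S100a9 stood at 10.84, 11.28 and 11.02 in MetS, against 10.92, 10.77, 10.88 and 10.93 in controls. MetS animal 2 was the highest, and MetS animal 1 lay among the controls. The means were 11.05 ± 0.22 in MetS and 10.87 ± 0.07 in controls, a difference of 0.17 with an interval from -0.08 to 0.43 (adjusted p = 0.487). That difference was 0.05 without MetS animal 2 and 0.27 without MetS animal 1.

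Among the receptors, Csf3r is the receptor for granulocyte colony-stimulating factor, the hormone that drives neutrophil production. It stood at 9.66, 10.03 and 9.91 in MetS, against 9.59, 9.67, 9.50 and 10.06 in controls. Control 4 was the highest of all animals, above MetS animal 2. The difference was 0.16 with an interval from -0.20 to 0.51 (adjusted p = 0.629). Leaving out control 4 gave 0.28 and leaving out MetS animal 1 gave 0.26. The value was 0.08 with MetS animal 2 left out, 0.09 with control 3 left out, and 0.04 with controls 2 and 3 both left out. It was -0.04 with the SD of all values of an animal as a covariate. Fpr1 detects formylated peptides shed by bacteria and mitochondria. It stood at 7.34, 7.58 and 7.49 in MetS, against 7.61, 7.68, 7.28 and 7.43 in controls. The MetS values lay inside the range of the controls, with a difference of -0.03 and an interval from -0.29 to 0.23 (adjusted p = 0.904).

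Among the granule genes, Ngp split the animals of both groups. Ngp codes for neutrophilic granule protein, a cathelicidin-related protein that in mouse is made by maturing neutrophils. It stood at 6.59, 8.37 and 8.27 in MetS, against 8.44, 6.83, 6.61 and 7.37 in controls. MetS animal 1 and controls 2 and 3 were low, MetS animals 2 and 3 and control 1 were high, and control 4 lay between. The highest animal stood 3.62-fold above the lowest. The means were 7.74 ± 1.00 in MetS and 7.32 ± 0.82 in controls, a difference of 0.43 whose interval ran from -0.91 to 1.76 (adjusted p = 0.731). The difference was 1.00 without MetS animal 1 and -0.17 without controls 2 and 3. It was 0.11, 0.16 and 0.19 without MetS animal 2, MetS animal 3 or control 3, and 0.06 with the SD covariate. Camp, the cathelicidin antimicrobial peptide of the secondary granules, stood at 6.76, 7.02 and 6.81 in MetS, against 7.19, 6.92, 7.02 and 6.87 in controls. Its difference was -0.14 with an interval from -0.38 to 0.10 (adjusted p = 0.548).

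Lcn2 codes for lipocalin 2, which withholds iron from bacteria and is made by inflamed epithelium as well as by neutrophils. It stood at 10.44, 9.99 and 10.74 in MetS, against 11.40, 10.56, 10.30 and 7.63 in controls. Control 1 was the highest and control 4 the lowest of all animals, 13.6-fold apart, and the MetS values lay between them. The means were 10.39 ± 0.38 in MetS and 9.97 ± 1.63 in controls, a difference of 0.41 with an interval from -1.50 to 2.33 (adjusted p = 0.821). Without control 4 the difference was -0.37. Control 4 was not low for the other 6 genes as a group: it had the highest Csf3r value and lay between other animals for the remaining 5. Control 4 was also the lowest animal for the club cell P450 gene Cyp2f4, at 10.61, 10.01 and 10.13 in MetS, against 10.78, 11.29, 10.47 and 9.70 in controls. The secretory airway gene Scgb3a1 stood at 10.35, 10.29 and 9.90 in MetS, against 11.70, 12.47, 11.44 and 10.27 in controls, with control 4 at the level of the MetS animals. Over all 8 measured airway secretory markers the mean level was 8.86 to 8.92 in MetS and 8.79 to 9.45 in controls, with control 4 lowest. Control 4 was not the lowest animal for every gene of that list. Ltf stood at 6.46 in control 4 and was lowest in MetS animal 1, at 6.26. Reg3g and Bpifa1 were lowest in MetS animal 2, and Scgb3a1 in MetS animal 3. The part of airway cells in the Lcn2 values was not tested.

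**Figure D1:**
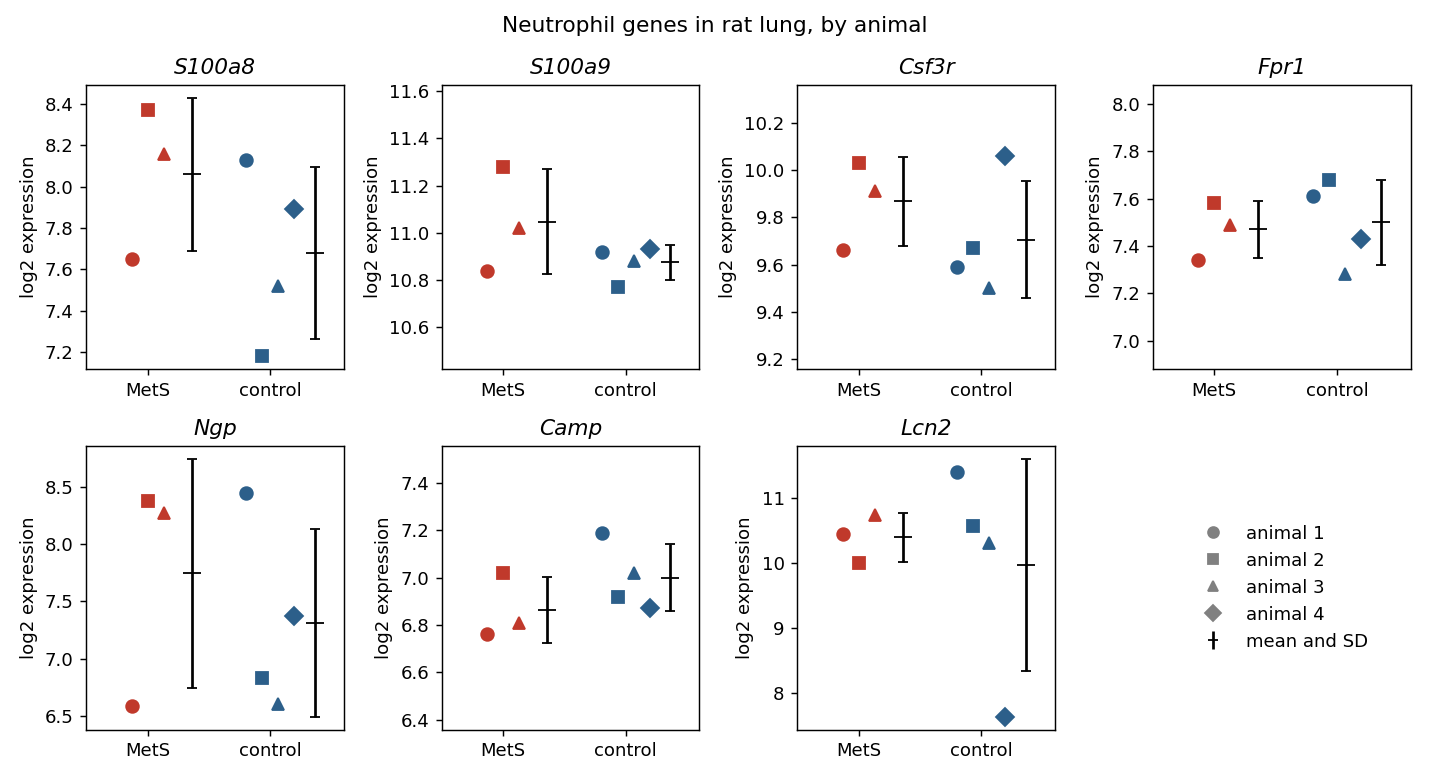
Log2 expression of the 7 measured neutrophil genes, 1 point per animal, with the mean and SD of each group beside the points; each panel has its own vertical axis. The groups overlap in all 7 panels, Ngp is low in MetS animal 1 and controls 2 and 3, and Lcn2 is at 7.63 in control 4.

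The intervals show how large a difference these animals could still hide. For S100a9, Fpr1 and Camp the 95% limits lay within 0.43 of 0 on the log2 scale. For Ngp they reached -0.91 and 1.76, and for Lcn2 -1.50 and 2.33. A p that misses the threshold does not show equal expression.

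**Figure D2:**
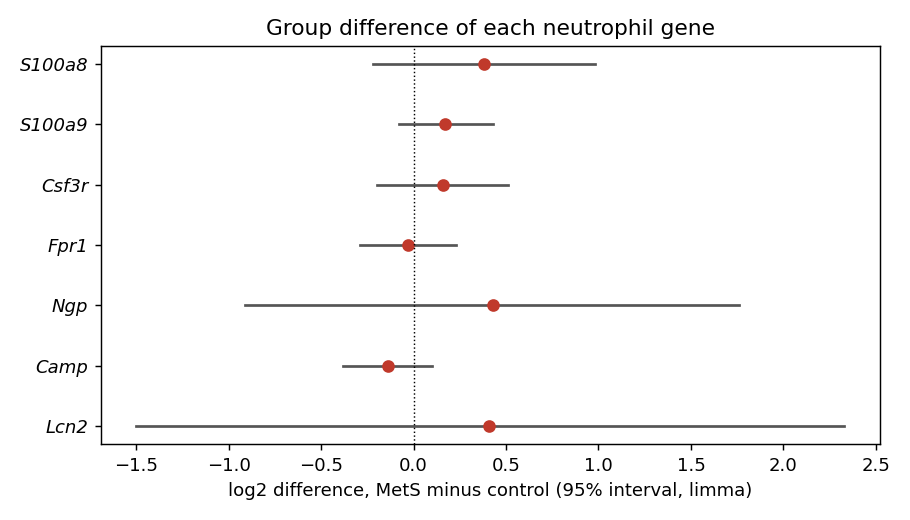
Log2 difference of MetS minus control for each neutrophil gene (points) with its 95% interval from limma (lines). Each interval includes 0, and those of Ngp and Lcn2 are the widest.

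Animals of 1 group differed more for these genes than for most. The within-group SD, taken about the group means, was 0.89 for Ngp and 1.29 for Lcn2, at the 99.6 and 99.9 percentile of all probes. It was 0.40 for S100a8, at the 93.5 percentile, and 0.23 for Csf3r, at the 79.3 percentile. Fpr1, S100a9 and Camp, at 0.16, 0.15 and 0.14, were close to the median of all probes, 0.13, which all 7 exceeded. The 2 arrays of the same animal differed by 0.01 to 0.30 over the 7 genes and both animals, with a median of 0.08. For Fpr1 in control 1 they read 7.70 and 7.52, a gap of 0.18. Its within-group SD was 0.16, but a gap between 2 arrays and an SD are not the same measure. The widest of these gaps was for Ngp in MetS animal 1, at 6.44 and 6.74, while the Lcn2 arrays of control 1 read 11.39 and 11.41.

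Ngp, S100a8 and S100a9 shared their low animals. MetS animal 1 and controls 2 and 3 were the 3 lowest animals for Ngp, for S100a8 and for S100a9, a pattern picked out after the values were seen. For S100a9 the order rests on a small gap: control 3 stood at 10.88 and control 1 at 10.92. The 2 arrays of control 1 read 10.95 and 10.89. Of all probes, 3.82% had these 3 animals lowest. Csf3r, Fpr1, Camp and Lcn2 did not. Among further neutrophil genes the same 3 were lowest for Mmp8, the neutrophil collagenase, which stood at 8.53, 9.20 and 9.36 in MetS, against 9.28, 8.34, 8.73 and 8.87 in controls. They were also lowest for Mmp9, the gelatinase of the tertiary granules, at 7.00, 7.69 and 7.68 in MetS, against 7.58, 7.15, 7.12 and 7.47 in controls. Pglyrp1, a granule protein that binds peptidoglycan, and Itgam, the CD11b integrin chain of myeloid cells, had the same 3 lowest. Pglyrp1 spanned 7.98 to 8.24 in MetS and 7.72 to 8.22 in controls, and Itgam spanned 7.60 to 7.83 in MetS and 7.68 to 7.81 in controls. Both orders rest on small gaps. Pglyrp1 stood at 8.03 in control 3 and 8.10 in control 4, and Itgam at 7.70 in control 2 and 7.75 in control 4. Over all probes the 2 arrays of an animal differed by a median of 0.06 in MetS animal 1 and 0.08 in control 1. The count of genes with these 3 animals lowest was 3 of 13 measured secondary and tertiary granule genes and 2 of 17 neutrophil receptors, Itgam and Fcgr2b. It was 0 of 5 primary granule genes, 0 of 8 alpha-defensin genes and 0 of 5 oxidase genes. It was 2 of 13 chemoattractant and growth factor genes, 2 of 10 endothelial ligands and 1 of 9 granulocyte transcription factors.

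**Figure D3:**
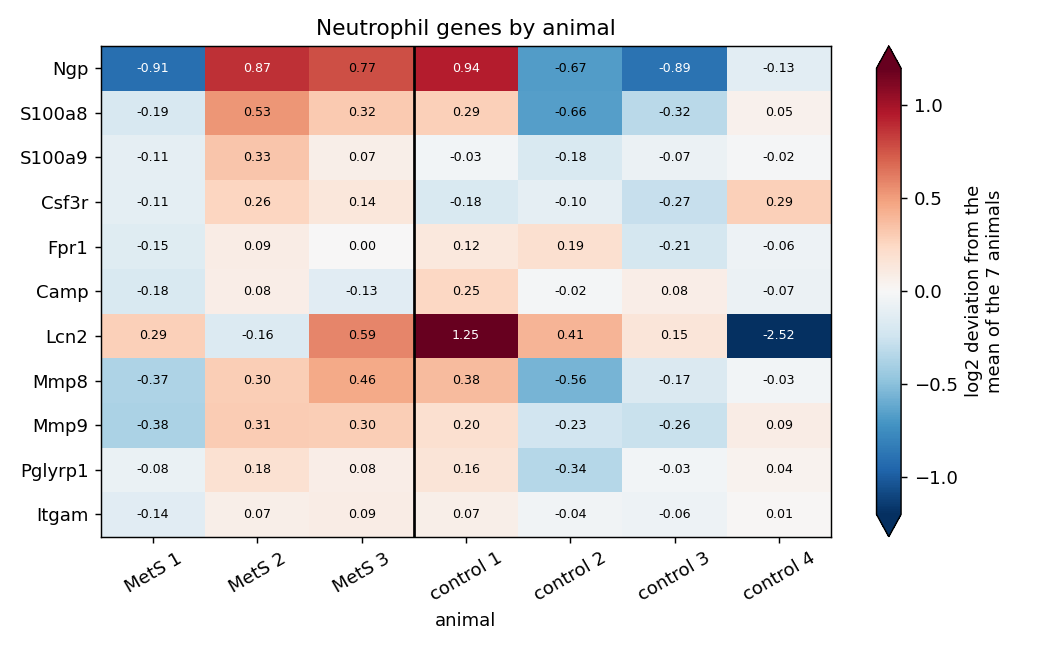
Log2 deviation of each gene from its mean over the 7 animals, MetS animals left of the line and controls right of it, for the 7 measured neutrophil genes and 4 further ones. The further 4, Mmp8, Mmp9, Pglyrp1 and Itgam, were added after their values were seen. Their lists had MetS animal 1, control 2 and control 3 lowest for 3 of 13 granule genes and 2 of 17 receptors. These 3 animals are the lowest for Ngp, S100a8, S100a9 and the further 4. Some of these cells are close to 0, such as Pglyrp1 at -0.03 in control 3 and Itgam at -0.04 in control 2. Lcn2 is lowest in control 4.

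T cell markers moved with this pattern. The same 3 animals were lowest for 6 of 10 T cell markers, Cd3e, Cd3d, Cd3g, Lck, Cd2 and Trat1, and for the mean of the T cell list. That mean was 7.94, 8.62 and 8.48 in MetS, against 8.25, 8.07, 8.19 and 8.40 in controls. The mean of the 4 measured platelet markers was lowest in the same animals too, at 7.59, 8.15 and 7.66 in MetS, against 7.87, 7.52, 7.51 and 7.73 in controls, although 0 of these 4 had exactly these 3 animals lowest. The third list mean lowest in these animals was that of the granulocyte transcription factors, out of 21 lists beside the members. The mean of the 7 measured neutrophil genes did not have these 3 animals lowest. That mean was 8.47, 8.95 and 8.91 in MetS, against 9.04, 8.52, 8.45 and 8.31 in controls, with control 4 lowest. Prg2, the eosinophil major basic protein gene, was 1 of 7 eosinophil and basophil markers to share the pattern. Prg2 stood at 6.62, 7.55 and 7.55 in MetS, against 8.57, 6.93, 6.81 and 7.11 in controls. Red cell markers shared the pattern only in part, with 1 of 6. Their mean was 9.47, 9.78 and 9.62 in MetS, against 9.32, 8.89, 8.85 and 9.56 in controls. Controls 2 and 3 were the lowest here, while MetS animal 1 lay above control 1. B cell, NK cell, mast cell and alveolar macrophage markers did not share the pattern, with 0 of 5, 0 of 8, 0 of 8 and 0 of 7. The alveolar macrophage mean was highest in MetS animal 1, at 9.46, 8.91 and 9.05 in MetS, against 9.30, 9.15, 9.09 and 9.11 in controls. The part of these cells in the values of the neutrophil genes was not tested. The SD of all values of an animal was 1.93, 1.90 and 1.88 in MetS, against 1.85, 1.77, 1.76 and 1.88 in controls. Controls 2 and 3 had the lowest SD and MetS animal 1 the highest. The part of this spread in the shared low values was not tested. The mean of 9 lung markers was 12.77 to 12.85 in MetS and 12.75 to 12.78 in controls. Several of these probes read high on the log2 scale, such as that of the surfactant gene Sftpc at 13.88 to 13.89 in MetS and 13.88 to 13.91 in controls, and whether they could still show a difference was not tested. Sftpd, which codes for surfactant protein D, stood at 12.25, 12.15 and 12.14 in MetS, against 12.11, 12.05, 11.74 and 11.90 in controls. It was the 1 of 9 lung markers whose groups did not overlap, beside 11.7% of all probes. The separation was small, with MetS animal 3 at 12.14 and control 1 at 12.11. The difference of Sftpd was 0.23 (limma, adjusted p = 0.363).

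**Figure D4:**
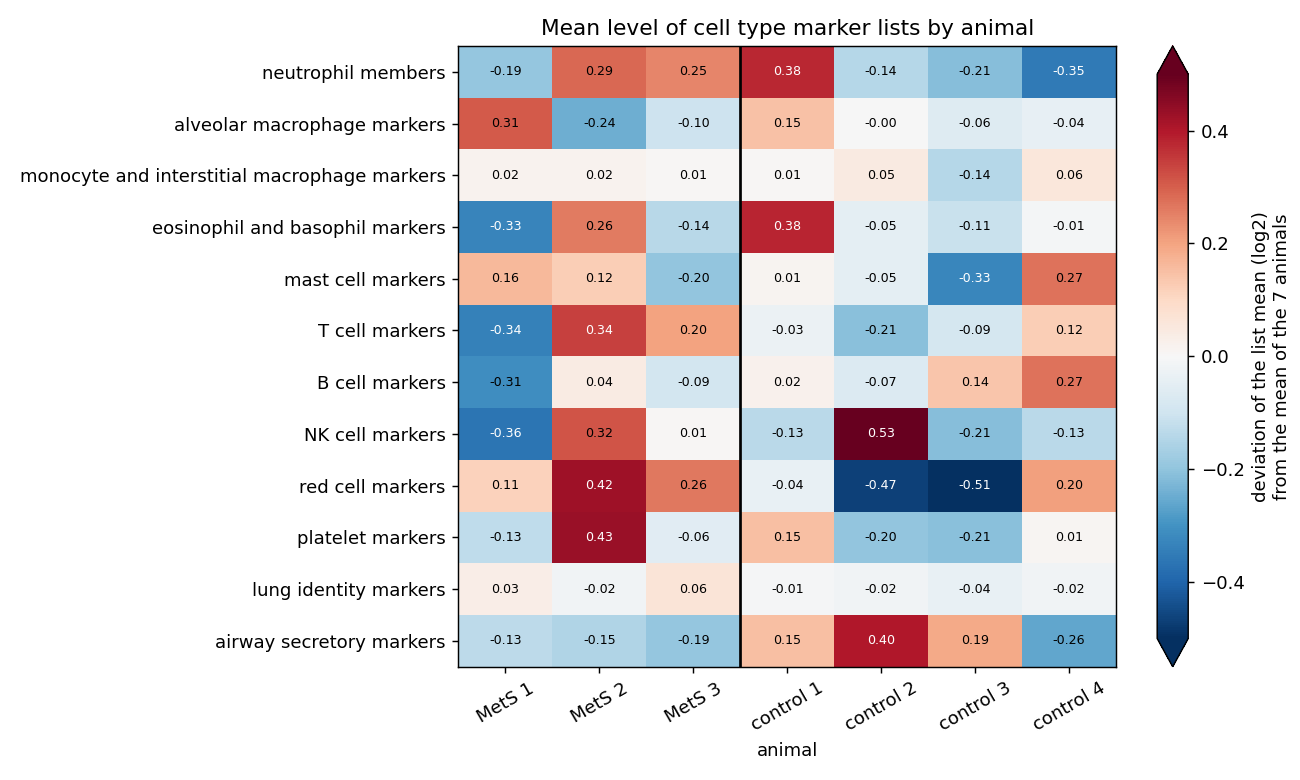
Mean log2 level of each cell type marker list as a deviation from its mean over the 7 animals, MetS left of the line. T cell and platelet lists are low in MetS animal 1 and controls 2 and 3, and the alveolar macrophage list is high in MetS animal 1.

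The genes most like the neutrophil genes over the 7 animals were Rcbtb2, Lbh, Traf4, Tbc1d10c, Casp2, Ly6al, C14h7orf57, Kremen1, Rpa1 and Tubb5. Likeness was the Pearson r over the 7 animals with the mean of the 7 scaled genes, ranked among 11993 genes. It lay between 0.935 for Tubb5 and 0.972 for Rcbtb2, a description in which both measures come from the same arrays. Ly6al, a gene of the Ly6 surface antigen family, stood out for its size. It stood at 6.50, 10.65 and 10.39 in MetS, against 10.74, 6.65, 5.74 and 6.07 in controls. Its 3 high animals, MetS animals 2 and 3 and control 1, were the 3 with the highest Ngp, and its values fell into 2 separate sets with none between. Ly6al was picked by likeness to a mean that includes Ngp, so the shared high animals were partly given by that choice. The other 9 spanned far less, for example Rcbtb2 at 8.34 to 8.59 in MetS and 8.39 to 8.50 in controls. Of the listed genes of neutrophils, Mmp9 had r = 0.90 and Itgam r = 0.88 with the same mean, and Cxcr2 r = 0.66. Others ran the opposite way, with r = -0.88 for Siglec5, -0.63 for Cxcr1, -0.59 for Trem1 and -0.48 for Cybb. The platelet gene Gp1ba, at r = 0.91, ranked above Mmp9.

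Further neutrophil genes gave no call either. Of 5 measured primary granule genes, 4 had a lower and 1 a higher mean in MetS, with a median of -0.02 that turned to 0.11 after another quantile normalization and to 0.04 with the SD covariate. Mpo, the myeloperoxidase of these granules, stood at 6.74, 6.84 and 6.80 in MetS, against 7.18, 6.81, 6.82 and 6.91 in controls (limma, adjusted p = 0.534). All 8 measured alpha-defensin genes had a lower mean in MetS, with a median of -0.22. That median was -0.03 after another quantile normalization, with 3 higher and 5 lower, and 0.00 with the SD covariate, with 4 higher and 4 lower. Defa11 stood at 5.34 to 5.62 in MetS, against 5.75, 5.74, 6.00 and 5.70 in controls, and was the 1 of 8 at an unadjusted p under 0.05. Defa11 and Defa24 were the 2 of 8 whose groups did not overlap. Over all probes 13.7% were at that p and 11.7% did not overlap. Defa11 and Defa24 read below the 25th percentile of probe means, 6.48, in every animal. Of the 8 genes 4 lay above that percentile, with 0 higher, 4 lower and a median of -0.21. The defensins are close copies of each other, so their probes may share signal. The probe of Np4 and RatNP-3b stood at 6.30, 6.87 and 7.06 in MetS, against 7.29, 6.87, 6.98 and 6.87 in controls, a difference of -0.26 (limma, adjusted p = 0.542).

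Of 17 measured surface receptors, 13 had a higher and 4 a lower mean in MetS, with a median of 0.04. With the SD covariate 7 were higher and 10 lower. Clec4d, a C-type lectin receptor of myeloid cells, stood at 9.31, 9.42 and 9.64 in MetS, against 8.97, 9.09, 9.06 and 9.37 in controls, with MetS animal 1 below control 4. It was the 1 receptor at an unadjusted p under 0.05. Clec4e, a related lectin, was the 1 receptor whose groups did not overlap, at 8.80, 8.92 and 8.95 in MetS, against 8.25, 8.76, 8.79 and 8.77 in controls. Both counts of 1 of 17 are smaller shares than the 13.7% and 11.7% of all probes. Cxcr2, the chemokine receptor that draws neutrophils out of marrow and into tissue, stood at 9.20, 9.61 and 9.43 in MetS, against 8.78 to 9.38 in controls, a difference of 0.40 (adjusted p = 0.382). The 5 oxidase genes had 1 higher and 4 lower mean, with Cyba, a membrane subunit of the oxidase, at 9.52, 9.35 and 9.11 in MetS, against 9.60, 9.27, 9.32 and 9.45 in controls. Of 13 chemoattractant and growth factor genes 6 were higher and 7 lower in mean. Il6, an inflammatory cytokine gene, was the 1 of 13 at an unadjusted p under 0.05 (13.7% of all probes). It stood at 5.11, 5.14 and 5.09 in MetS, against 5.42, 5.52, 5.68 and 5.19 in controls. These Il6 values lie below the 25th percentile of probe means, 6.48. Cxcl1, a ligand of Cxcr2, stood at 8.83, 8.83 and 8.40 in MetS, against 9.04, 8.84, 8.60 and 9.22 in controls. The endothelial ligands to which neutrophils bind had 5 higher and 5 lower, with Icam1 at 11.07 to 11.27 in MetS and 11.21 to 11.37 in controls. The granulocyte transcription factors had 7 higher and 2 lower, and Cebpe, which codes for C/EBP epsilon, spanned 7.45 to 7.68 in MetS and 7.42 to 7.70 in controls. Red cell markers had 6 of 6 higher in mean, with a median of 0.43 that was 0.04 with the SD covariate, where 3 were higher and 3 lower. Without that covariate 3 of 6 were at an unadjusted p under 0.05 (limma), all higher in MetS. Of all probes 13.7% were at that p in either direction, and 3.82% were at that p and higher in MetS. The groups did not overlap for 1 of 6, beside 11.7% of all probes. Of all these genes 0 passed limma's adjusted threshold.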

How the data were processed

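The authors deposited log2 expression values for each transcript cluster (probe) on each array. Per the submitters' processing notes, the tools were R 2.11.0, RMA and limma; their roles are not stated there. Array medians lay between 7.64 and 7.69. Arrays of 1 animal were averaged, and MetS minus control was fitted over all 28826 probes with limma 3.58.1 in R 4.3.3 (lmFit, eBayes), Benjamini-Hochberg adjusted, threshold 0.05. The moderated test had 7.28 degrees of freedom. The labels give separate animals; their number limits the precision. Probes were named through the platform annotation (15209 with 1 symbol, 306 with several, 13311 with none), updated through RefSeq (GRCr8). All 7 measured genes passed a filter at the 25th percentile of probe means (6.48). Named were all measured neutrophil genes, up to 3 of each of 21 lists by p, and the 10 most like the neutrophil genes; the text gives only some of these. Mmp8, Mmp9, Pglyrp1, Itgam, Fcgr2b, Prg2, Cyp2f4, the T cell markers Cd3e, Cd3g and Lck, Cebpe, Sftpc, Siglec5, Cxcr1 and Trem1 were added after their values were seen. Members and lists were chosen with earlier results of these data known. The fit was tested on simulated data.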

Additional observations from a re-analysis of the deposited data

Results flagged for a closer look

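Among 94 named genes, 6 had a control animal whose gap to the nearest of the other 3, as a share of the range of the 4 controls, exceeded Dixon's 95% critical value, and chance alone flags about 1 in 20 such groups. None of them was one of the 7 measured neutrophil genes; the gap of control 4 for Lcn2 was 0.709 of the range. Clec4e, a C-type lectin of myeloid cells, was low in control 1 at 8.25, with the others at 8.76 to 8.79 (share 0.929). Lrp2, a receptor that takes up lipocalin 2, was low in control 3 at 9.89, with the others at 10.01 (share 1.000). The cytotoxic genes Prf1 and Gzma were high in control 2, at 10.10 (share 0.881) and 10.29 (share 0.878). Lbh and C14h7orf57, both among the genes most like the neutrophil genes, were high in control 1, at 10.57 (share 0.925) and 7.83 (share 0.935). Both were picked by likeness to the mean of the 7 scaled genes. That mean was 0.62 in control 1, against -0.34, -0.60 and -0.26 in controls 2 to 4. Their flags were partly given by that choice, so the rate of 1 in 20 does not apply to them.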

How the results depend on the processing

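Under 18 alternatives the count of neutrophil genes past the adjusted threshold stayed at 0 of 7, and the smallest adjusted p of any of them was 0.183. The median difference of the 7 ranged from 0.04 to 0.27, and from 0.08 to 0.27 leaving out 1 animal. Of 126 differences of single genes 118 kept their direction. The exceptions were Fpr1 at 0.01 after another quantile normalization and at 0.03, 0.00 and 0.03 without MetS animal 1, control 1 or control 2; Lcn2 at -0.37 without control 4 and with the replicate number as a block; Csf3r at -0.04 with the SD of all values of an animal as a covariate; and Ngp at -0.17 without controls 2 and 3. Leaving out 1 animal, Fpr1 ranged from -0.10 to 0.03 and Lcn2 from -0.37 to 0.89. The causes were not tested. With the replicate block, in which control 4 stands alone and adds nothing, 2017 probes passed the adjusted threshold, 6747 had an unadjusted p under 0.05, and 1 neutrophil gene, Csf3r, did. Same-numbered animals had correlations of their deviations of 0.271, -0.118 and 0.339. Differently numbered animals had -0.421 to 0.385, a range that holds these values. The labels give same-numbered animals only a shared number, and whether they shared a run was not tested. Leaving out 1 animal gave 0 to 1 neutrophil genes at an unadjusted p under 0.05, S100a9 without MetS animal 1 and Csf3r without control 4. The 3959 probes at that threshold numbered 2290 and 2168 when MetS animal 1 or 2 was left out, and 2386, 2321 and 6180 when control 2, 3 or 4 was. They became 1023 with the SD covariate, 2181 among probes above the 25th percentile and 1510 without controls 2 and 3. Each measured gene had 1 probe, so averaging probes gave no other value. The within-group spread was 0.23 on the first arrays too.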
